A study of Mus musculus with 60 samples.

Results

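The genes described here are 35 regulators of chromatin and transcription in which changes are known to be linked to autism or intellectual disability. They are taken by gene symbol, with no threshold on their values, and each matched 1 Ensembl identifier among the 18088 genes of the deposited table. The tissue was prefrontal cortex, taken from C57BL/6J mice on postnatal day 25. The 60 libraries fall into 12 groups of 5, which cross genotype at Trip12, a gene for a ubiquitin ligase (HT, heterozygous, or WT, wild type), treatment (vehicle, fluoxetine or lithium) and sex. Each treatment ran for 3 weeks, from postnatal day 3 to day 24, and reached the pups through their mother's milk, so all groups shared an indirect route of dosing. Fluoxetine is a selective serotonin reuptake inhibitor, and lithium is a mood stabiliser. The labels give neither the Trip12 allele nor the litter of any animal and do not say that libraries came from separate animals, so a p-value measures the spread between these libraries. All 35 genes passed the filter on low values, and the lowest value of any of them in any library was 287 normalised counts.

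The libraries differed in ways that move with treatment. Whole reads recovered from the normalised counts totalled 25.1 to 36.6 M (mega) a library. Vehicle libraries held 26.6 to 31.0 M and fluoxetine libraries 32.7 to 36.6 M, with no overlap. Lithium libraries held 32.1 to 35.9 M in females and 25.1 to 33.5 M in males. Trip12 itself was not lower in the libraries labelled HT: over all treatments it was higher by 0.11 ± 0.02 (log2 fold change ± SE, limma adjusted p = 0.0014), on that side in 28 of 30 libraries. The part of the gene that the allele removes is not known here, so this neither checks nor contradicts the labels, and the 30 libraries are called "labelled HT". A pair of libraries stood apart: WT fluoxetine male 2, in which longer genes were low as a class (length slope of -0.170), and HT vehicle male 1, in which GC-rich genes were low (GC slope of -0.261). A slope is how steeply a library's centred log2 values change with the log2 length, or the GC content, of its genes.

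Chromatin is the packaging of DNA around histones, and the proteins of this set open it, close it, mark it or read its marks. Remodellers use ATP to slide or evict nucleosomes, methyltransferases and demethylases write and erase marks on histone tails, and cohesin, Ctcf and Mediator connect enhancers with promoters. Sequence-specific factors such as Foxp1, Bcl11a and Tcf4 bring these machines to chosen genes. In people, loss of a single copy of many of these genes is enough to cause a developmental disorder.

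Promoter sequence was available for 24 of the 35 genes, as 32 windows of 300 bases (250 before to 50 after an annotated start, RefSeq, GRCm38.p6). The windows of Smarcc2, Bcl11a and Arid1b are shown because these are the 3 members that fell with lithium in WT cortex, as described further on. Capitals mark GGGCGG, the GC box bound by SP and KLF factors. They also mark the CCAAT box. Reverse complements of both are in capitals too. All 3 lie on the plus strand at chr10:128458986-128459285, chr11:24080445-24080744 and chr17:4994824-4995123, and each is 5′ to 3′.
Smarcc2: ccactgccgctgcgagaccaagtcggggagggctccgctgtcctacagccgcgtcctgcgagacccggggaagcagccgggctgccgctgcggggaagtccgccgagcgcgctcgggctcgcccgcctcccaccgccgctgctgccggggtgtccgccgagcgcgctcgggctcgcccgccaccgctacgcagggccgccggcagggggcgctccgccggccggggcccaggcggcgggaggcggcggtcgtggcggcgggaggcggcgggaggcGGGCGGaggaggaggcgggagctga
Bcl11a: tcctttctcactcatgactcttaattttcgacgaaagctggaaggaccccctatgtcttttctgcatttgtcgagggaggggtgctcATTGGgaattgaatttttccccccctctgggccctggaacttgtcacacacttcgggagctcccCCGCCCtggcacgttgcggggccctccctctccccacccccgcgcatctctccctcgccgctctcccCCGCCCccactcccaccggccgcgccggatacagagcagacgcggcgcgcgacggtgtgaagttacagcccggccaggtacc
Arid1b: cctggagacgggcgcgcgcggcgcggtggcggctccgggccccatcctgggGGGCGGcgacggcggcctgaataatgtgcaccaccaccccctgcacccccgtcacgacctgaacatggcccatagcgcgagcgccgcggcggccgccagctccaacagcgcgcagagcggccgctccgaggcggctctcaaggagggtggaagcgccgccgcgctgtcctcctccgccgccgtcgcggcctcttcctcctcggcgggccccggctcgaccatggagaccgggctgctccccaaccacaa

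The start inside the Smarcc2 window lies 12 bp from the nearest transcript start in the GENCODE annotation. The Bcl11a start lies 25 bp from a transcript start and 2639 bp downstream of the gene's first one, and the Arid1b start lies on a transcript start 742 bp downstream of the gene's first one. The windows hold 48, 23 and 42 CpG dinucleotides. Over the 32 windows of the set the median was 27.5 CpG (range 1 to 63), against 7 over all 32851 RefSeq windows, and 26 of the 32 were above that median. GGGCGG was present in 26 of 32 windows (81.2%), and in 22 of the 24 genes, against 35.7% of all windows. The other motifs were present at shares nearer to the background. CCAAT was in 28.1% against 37.4%, the E-box CACGTG in 6.25% against 7.15%, the ETS motif CCGGAAG in 6.25% against 8.86% and the cAMP response element TGACGTCA in 3.12% against 1.79%. The palindromic NRF1 motif and the AP-1 motif TGANTCA were in none of the 32 windows, against 0.971% and 7.81% of all. Both strands were searched. A GC box is a part of many CpG-rich windows, and a match describes letters, not binding.

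In vehicle-treated WT cortex the set spanned a 42.5-fold range when each gene's normalised count was divided by its exon length in kilobases. Smarcc2, a core subunit of the BAF remodelling complex, was highest at 1570 ± 59.6 per kb (mean ± SD, n = 10; range 1514 to 1689). Wac, an adaptor for ubiquitination of histone H2B, followed at 525 ± 41.3, then Ankrd11, a co-regulator that recruits histone deacetylases, at 464 ± 26.0, and Tcf20 at 402 ± 24.4. The lowest were Chd7, a chromodomain remodeller, at 37.0 ± 6.14, Asxl3, a Polycomb-associated protein, at 40.1 ± 3.91, and Baz2b, a bromodomain protein, at 59.0 ± 3.06. Auts2, a component of a variant Polycomb complex, was next at 95.5 ± 9.52. The other 27 genes lay between 104 (Mbd5) and 377 (Ctcf) per kb. In this order the ranges of 30 of the 34 neighbouring genes overlapped; the exceptions were Smarcc2 and Wac, Ankrd11 and Tcf20, Auts2 and Baz2b, and Baz2b and Asxl3. All 35 genes were longer than the median tested gene: their median exon length, with all annotated exons merged, was 13786 bp against 4038 bp. The order depends on this merged length. Before division Tcf4 was highest, at 9637 normalised counts against 8719 for Smarcc2. Its merged exons span 27382 bp, against 5552 bp for Smarcc2, which placed Tcf4 at 352 per kb. The coefficient of variation ran from 2.69% (Med13l) to 23.3% (Adnp), with a median of 6.38%. Adnp shares 82.1% of its exon bases with the gene model Gm20716 on the same strand; over the 60 libraries its normalised count varied by 18.5%, that of Gm20716 by 12.9% and their sum by 5.34%. Counts for Adnp are therefore uncertain. Adnp alone had log2 fold changes of 0.15 with fluoxetine and 0.09 with lithium over both genotypes, neither called. The sum of the 2 gene models averaged 4625 ± 177 and 4617 ± 307 normalised counts with fluoxetine in HT and WT (SD, n = 10), 4409 ± 265 and 4350 ± 190 with lithium, and 4470 ± 236 and 4558 ± 143 with vehicle, so with lithium the sum lay below vehicle while Adnp alone lay above it. Chd2 shares 18.4% of its exon bases with 1810026B05Rik on the same strand, at a mean of 2042 against 193 normalised counts.

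**Figure D1:**
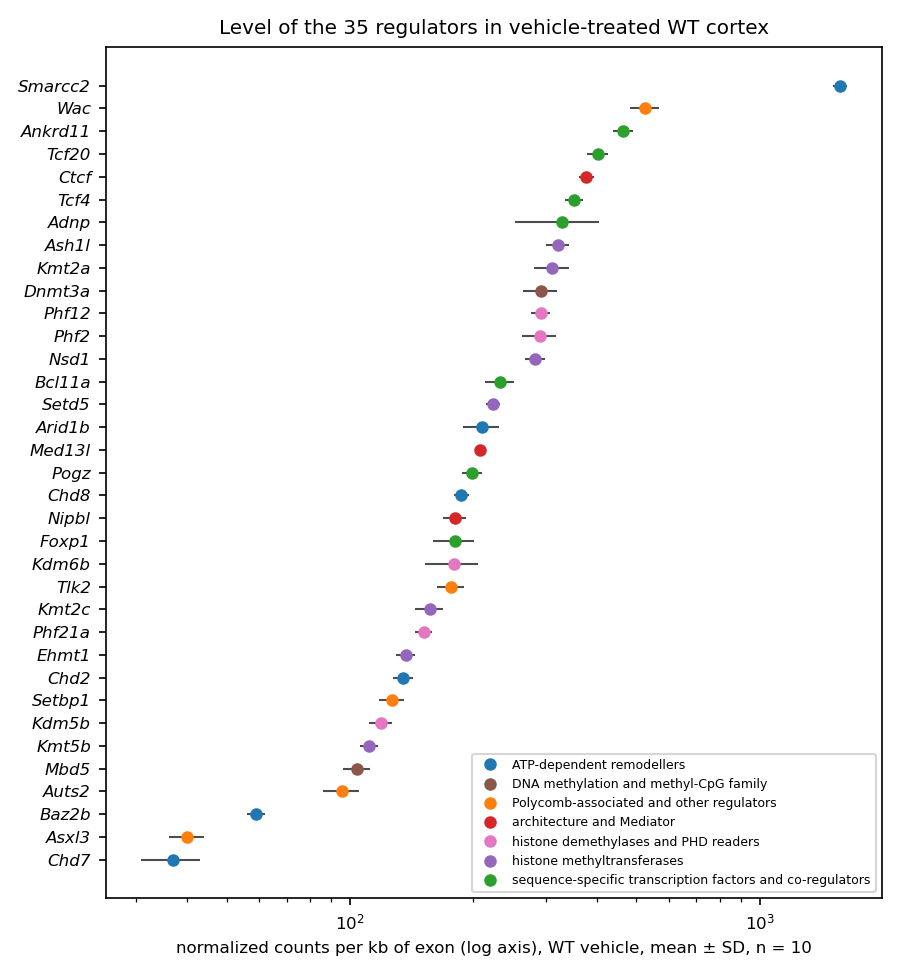
Level of each of the 35 genes in vehicle-treated WT cortex, in normalised counts per kilobase of exon on a log axis; points are means and bars the SD over 10 libraries, coloured by role. Smarcc2 stands at 1570 per kb and Chd7 at 37.0 per kb, and neighbouring genes mostly overlap.

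Across the 12 groups the members moved little in size, and their extremes were spread unevenly over treatment and sex. The highest group mean of a member exceeded its lowest by 1.08-fold (Phf12, a PHD-finger protein of deacetylase complexes) to 1.42-fold (Foxp1, a forkhead repressor), with a median of 1.20-fold. Of the 35 genes, 13 had their highest mean in HT fluoxetine females and 10 in WT fluoxetine females. In fluoxetine males it was 2 in HT and 1 in WT, and HT vehicle males held the highest mean of 4. The lowest mean lay in WT lithium males for 18 genes, in HT lithium males for 7 and in WT vehicle males for 5. These counts are a description, since members share libraries and no share over all genes is given. The length slope averaged 0.0356 and 0.0383 in HT and WT fluoxetine females, and -0.00851 and -0.0253 in HT and WT lithium males. In WT lithium females, where 3 genes had their lowest mean, it averaged -0.0268. The part of the slope in these counts was not tested. In bulk tissue, fewer cells of a type and less RNA per cell cannot be told apart.

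**Figure D2:**
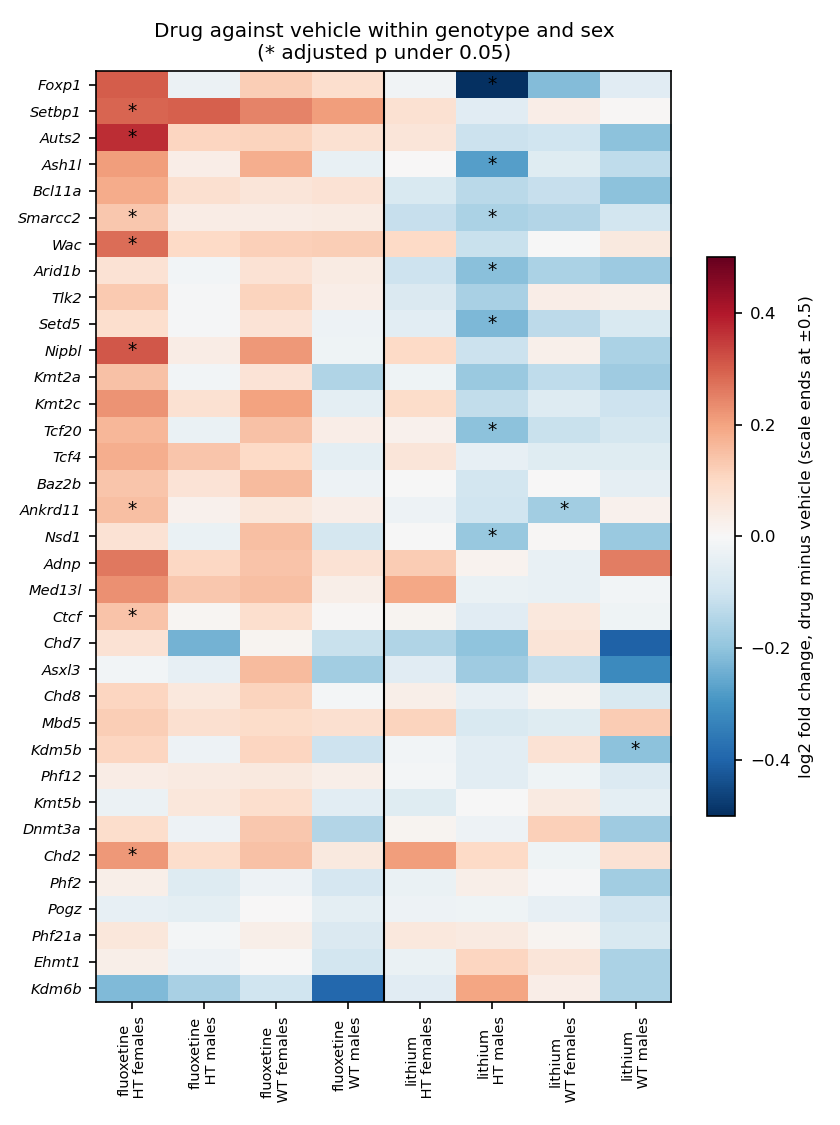
Log2 fold change of each member against vehicle of the same genotype and sex (colour, scale ends at ±0.5), with fluoxetine and lithium columns for HT and WT females and males; stars mark adjusted p under 0.05. Foxp1 in HT lithium males (-0.51) is the strongest fall, and most fluoxetine cells in females are above 0.

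Fluoxetine against vehicle, averaged over genotypes and sexes, raised 11 of the 35 members and lowered none; 14.5% of the 17804 genes tested were called in either direction and 6.71% were called higher. The members' median log2 fold change was 0.07, with 29 of 35 above 0, against 0.00 over all genes. The risers were Setbp1, Wac and Auts2 among the Polycomb-associated and other regulators, Chd2, Chd8 and Smarcc2 among the remodellers, Nipbl and Med13l among the architecture and Mediator genes, and Bcl11a, Tcf4 and Ankrd11 among the transcription factors and co-regulators. No histone methyltransferase (7 genes), demethylase or PHD-finger gene (5 genes) or DNA methylation gene (2 genes) was called. Classes this small can lack a call at the share over all genes, so this does not set them apart. All fold changes are on the log2(normalised count + 1) scale. The count was not stable. Here and below, counts under alternative fits are given without the share over all genes, so they describe the members alone. With depth as a covariate, which treatment nearly fixes, none of the 11 was called (Setbp1 log2 fold change 0.23, against 0.26 without it), and there were 6 calls after quantile normalisation. Without WT fluoxetine male 2 there were 20 calls, and without any of HT fluoxetine female 4, HT fluoxetine male 2, WT fluoxetine female 5, WT fluoxetine males 1 and 5, WT vehicle female 3 or WT vehicle male 2 there were 7.

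Setbp1, which binds the oncoprotein SET, held 1380, 1576 and 1671 normalised counts (lowest, median and highest of 10 libraries) in HT with fluoxetine and 1147, 1256 and 1484 in HT with vehicle. In WT it held 910, 1540 and 1761 with fluoxetine and 1154, 1247 and 1403 with vehicle. The ranges overlapped in both genotypes, and the lowest WT value came from WT fluoxetine male 2. Setbp1 (18:78750380-79109391, minus strand) rose by 0.26 ± 0.05 over both genotypes (limma adjusted p = 9.4e-05; 19 of 20 fluoxetine libraries above the vehicle mean of their genotype and sex).

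Wac (18:7868832-7929028, plus strand) held 3202, 3632 and 3873 in HT with fluoxetine against 2830, 3109 and 3804 with vehicle. In WT it held 2849, 3357 and 3806 against 2775, 3136 and 3567. Medians were higher with fluoxetine in both genotypes while the ranges overlapped. The fold change was 0.15 ± 0.03 (adjusted p = 0.0006; 18 of 20 libraries). Auts2 (5:131437333-132543344, minus strand), the longest locus of those given here, held 2121, 2444 and 2627 in HT with fluoxetine against 1689, 2064 and 2281 with vehicle, and 1749, 2396 and 2618 against 1809, 2168 and 2581 in WT. Its rise was 0.16 ± 0.04 (adjusted p = 0.0049; 17 of 20), and the WT ranges overlapped almost completely.

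Chd2 (7:73426638-73541830, minus strand), a chromodomain helicase that deposits the histone variant H3.3, held 2059, 2175 and 2225 in HT with fluoxetine against 1810, 1960 and 2121 with vehicle. In WT it held 1540, 2107 and 2329 against 1805, 1907 and 2101. In HT only the top of the vehicle range reached the fluoxetine libraries. It rose by 0.12 ± 0.03 (adjusted p = 0.0046; 19 of 20). Med13l (5:118560679-118765438, plus strand), which belongs to the kinase module of Mediator, rose by 0.14 ± 0.04 (adjusted p = 0.011; 19 of 20), from medians of 3271 and 3222 with vehicle to 3686 and 3645 with fluoxetine in HT and WT. Nipbl (15:8290617-8444463, minus strand), which loads cohesin onto DNA, rose by 0.14 ± 0.04 (adjusted p = 0.026; 19 of 20), from medians of 1708 and 1692 to 1955 and 1905. For both genes the lowest of all fluoxetine values, 2136 for Med13l and 1191 for Nipbl, was again WT fluoxetine male 2. Of the other 5 risers, Bcl11a changed by 0.10, Tcf4 by 0.09, Ankrd11 by 0.07 and Smarcc2 and Chd8 by 0.06. Nipbl was not called once length and GC slopes were in the fit (0.04).

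Within the libraries labelled HT, fluoxetine raised 7 members and lowered none, where 10.2% of all genes were called and 4.7% were called higher. Setbp1 rose by 0.29 ± 0.06 (limma adjusted p = 0.0022; 10 of 10 libraries), Auts2 by 0.24 ± 0.06 (adjusted p = 0.0065; 9 of 10), Wac by 0.19 ± 0.04 (adjusted p = 0.0045; 9 of 10), Med13l by 0.18 ± 0.05 (adjusted p = 0.021; 10 of 10), Tcf4 by 0.16 ± 0.05 (adjusted p = 0.017; 10 of 10) and Chd2 by 0.15 ± 0.04 (adjusted p = 0.02; 10 of 10). Bcl11a was the other riser, by 0.13. In a fit with both slopes the calls for Tcf4 (0.07), Chd2 (0.09) and Med13l (0.10) were lost, and with depth those for Setbp1 (0.27) and Chd2 (0.20); Tcf4 was also lost under quantile normalisation (0.12). Tcf4, a basic helix-loop-helix factor, held 9832, 10237 and 10461 in HT with fluoxetine against 8336, 9036 and 10759 with vehicle. The fluoxetine libraries were tightly grouped inside the wide vehicle range, whose top value was HT vehicle male 1.

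In WT no member was called by limma for fluoxetine against vehicle (0.208% of all genes were), with 5 members at an unadjusted p under 0.05, 4 of them higher. edgeR called none and DESeq2 called 1, Setbp1. The smallest p-values belonged to Setbp1 (0.23 ± 0.06, adjusted p = 0.12, 9 of 10), Wac (0.12 ± 0.04, adjusted p = 0.28, 9 of 10) and Tcf20 (0.09 ± 0.04, adjusted p = 0.40, 9 of 10). Without WT fluoxetine male 2 there were 7 calls. The interaction of genotype and fluoxetine called none of the 35 and 0% of all genes; 1 member had an unadjusted p under 0.05, and DESeq2 and edgeR called none. Its 3 smallest p-values belonged to Tcf4 (0.14 ± 0.06, adjusted p = 0.9997), Auts2 (0.15 ± 0.08) and Med13l (0.09 ± 0.08). A difference between the genotypes in the response to fluoxetine was therefore not detectable, and the larger number of calls in HT does not show one.

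Kdm6b, which removes methyl groups from lysine 27 of histone H3, had the lowest fold change of the set with fluoxetine and is named here because its value was seen. It held medians of 1025 and 1048 with fluoxetine in HT and WT against 1245 and 1216 with vehicle. The ranges overlapped, and the change of -0.22 ± 0.08 missed the threshold in limma (adjusted p = 0.052; 16 of 20), while DESeq2 called it lower. Kdm6b is also induced by neuronal activity; 8 of the 10 immediate early genes on the marker list were called lower with fluoxetine over both genotypes and none higher. The part of that difference in the Kdm6b values was not tested.

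**Figure D3:**
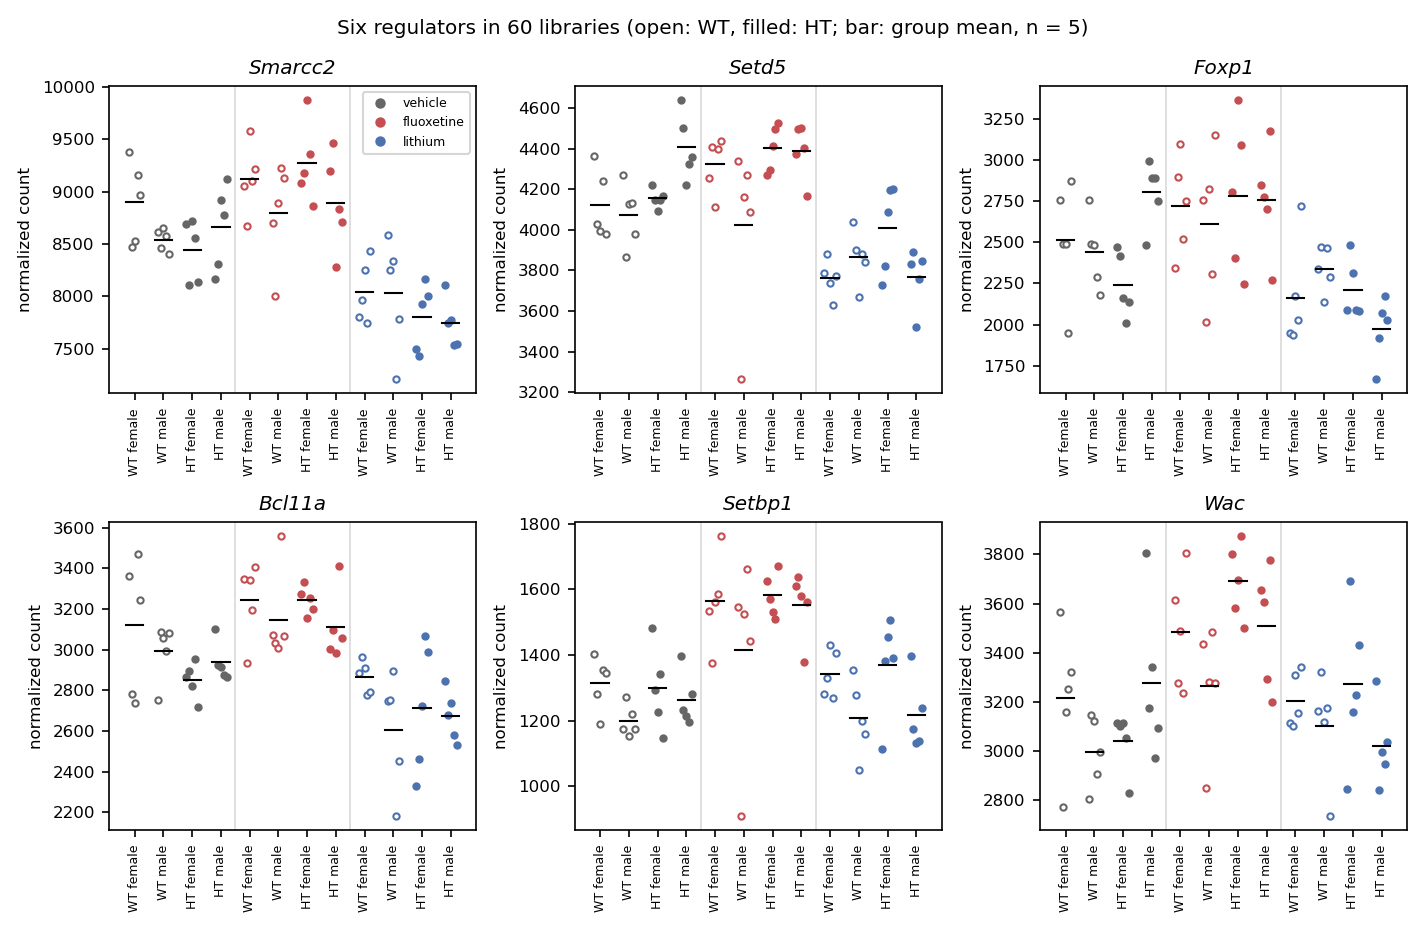
Normalised counts of Smarcc2, Setd5, Foxp1, Bcl11a, Setbp1 and Wac in each of the 60 libraries by group, with the group mean. Lithium groups sit low for Smarcc2 and Setd5, fluoxetine groups high for Setbp1, and WT fluoxetine male 2 is the low point of Setbp1 at 910.

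Lithium against vehicle went mostly the other way. Over both genotypes and sexes it lowered 8 members and raised 1, where 22.6% of all genes were called, 11.2% of them lower and 11.4% higher as shares of all tested. The median log2 fold change of the members was -0.04, with 27 of 35 below 0. This count and the direction counts that follow are given without the share over all genes, so they describe the set alone. Smarcc2 and Arid1b among the remodellers, Setd5 and Nsd1 among the methyltransferase family, and Bcl11a, Foxp1, Tcf20 and Ankrd11 among the transcription factors and co-regulators fell; Chd2 rose. No gene of the demethylase, DNA methylation, architecture and Mediator, or Polycomb-associated groups was called. Groups this small can lack a call at the share over all genes. The vehicle libraries are the same as in the fluoxetine comparison.

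Smarcc2 (10:128459248-128490482, plus strand) held 7428, 7762 and 8161 in HT with lithium against 8110, 8624 and 9119 with vehicle. In WT it held 7206, 8105 and 8585 against 8408, 8593 and 9375. In HT the ranges touched only between 8110 and 8161, and in WT they overlapped between 8408 and 8585. The gene fell by 0.13 on the log2 scale (SE 0.02; limma adjusted p = 1.4e-05; 19 of 20 lithium libraries below the vehicle mean). Arid1b (17:4994332-5347656, plus strand), the subunit that defines 1 form of the same complex, held 2129, 2359 and 2716 in HT with lithium against 2500, 2604 and 2897, and 2013, 2398 and 2515 in WT against 2145, 2691 and 3072. It fell by 0.16 (SE 0.04; adjusted p = 0.00073; 19 of 20), with overlapping ranges in both genotypes.

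Setd5 (6:113077365-113153435, plus strand), a SET-domain protein, held 3523, 3838 and 4201 in HT with lithium against 4092, 4220 and 4639, and 3631, 3814 and 4038 in WT against 3865, 4078 and 4361. It fell by 0.12 (SE 0.02; adjusted p = 7.8e-05; 18 of 20), and the ranges overlapped only in part. Bcl11a (11:24078056-24174123, plus strand), a zinc-finger factor of cortical projection neurons, held 2332, 2699 and 3070 in HT with lithium against 2717, 2885 and 3103, and 2183, 2784 and 2966 in WT against 2737, 3069 and 3473. It fell by 0.13 (SE 0.03; adjusted p = 0.0014; 18 of 20).

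Foxp1 (6:98925338-99522721, minus strand), which is expressed in deep cortical layers and strongly in striatal projection neurons, held 1667, 2084 and 2486 in HT with lithium against 2009, 2477 and 2995 with vehicle. In WT it held 1935, 2230 and 2718 against 1950, 2488 and 2874. It fell by 0.20 (SE 0.05; adjusted p = 0.0037) in 15 of 20 libraries. Tcf20 (15:82808436-82987872, minus strand), a co-regulator with PHD-like zinc fingers, fell by 0.10 (SE 0.03; adjusted p = 0.009; 16 of 20), from medians of 3445 and 3406 to 3221 and 3054. Nsd1, a methyltransferase for lysine 36 of histone H3, changed by -0.09 and Ankrd11 by -0.07. Chd2 was the gene that rose, by 0.09 ± 0.03 (adjusted p = 0.029; 14 of 20), from a median of 1960 to 2233 in HT and of 1907 to 1981 in WT. Scores of striatal and olfactory bulb markers as covariates ended the calls for Bcl11a (-0.07) and Tcf20 (-0.08), and the depth covariate that for Tcf20 (-0.08).

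Within HT, lithium lowered 5 members and raised 1, with 14.6% of all genes called, 7.14% lower and 7.44% higher. Smarcc2 changed by -0.14 ± 0.03 (limma adjusted p = 0.0013; 10 of 10), Setd5 by -0.14 ± 0.03 (adjusted p = 0.002; 8 of 10), Foxp1 by -0.26 ± 0.07 (adjusted p = 0.011; 8 of 10), Arid1b by -0.16 ± 0.05 (adjusted p = 0.032; 9 of 10) and Tlk2 by -0.12 ± 0.04 (adjusted p = 0.045; 8 of 10), while Chd2 rose by 0.15 ± 0.04 (adjusted p = 0.012; 8 of 10). Tlk2 (11:105178807-105283959, plus strand) is a kinase of the histone chaperone Asf1. It held 1215, 1338 and 1468 with lithium against 1296, 1454 and 1646 with vehicle, with overlap. Its call was lost in 11 of 20 fits that each left out a library, and the Arid1b call in 6 of 20.

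Markers of striatal projection neurons moved with the lithium comparison in HT: 8 of the 10 genes on that list were called lower and none higher. Their summed level was 6188 to 20523 normalised counts in HT vehicle males, with a median of 18143, against 7395 to 8893 in HT lithium males and 5917 to 15503 in the other 10 groups; none of the 10 markers was at 0 in any library. The striatal score was 1.09 in HT vehicle males and -0.23 in HT lithium males (two-sided exact permutation test, p = 0.048, or 0.167 after Benjamini-Hochberg adjustment over 14 comparisons). HT vehicle males also lay above HT fluoxetine males (-0.08, p = 0.048) and WT vehicle males (-0.08, p = 0.032) by the same exact test. Both had an adjusted p of 0.167. The striatal difference is thus not particular to lithium, and HT vehicle males are also part of the fluoxetine comparison in HT given above. With striatal and olfactory bulb scores in the fit, the HT lithium calls for Foxp1 (-0.19), Smarcc2 (-0.06), Arid1b (-0.10) and Tlk2 (-0.07) were lost, and those for Setd5 and Chd2 remained. In WT, no striatal marker was called with lithium, but other marker scores differed. In WT males the olfactory bulb and neuroblast score was -1.22 with lithium and 1.21 with vehicle (two-sided exact permutation test, p = 0.0079, or 0.111 after adjustment), and the endothelial and mural score was -0.07 against 0.12 (p = 0.0079, or 0.037 after adjustment), by the same exact test. Of 8 oligodendrocyte markers, 7 were called lower with lithium over both genotypes, and their part in the members' values was not tested.

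In WT, lithium lowered 3 members and raised none, with 4.57% of all genes called and 2.11% called lower. These were Smarcc2 (-0.12 ± 0.03, limma adjusted p = 0.015, 9 of 10), Bcl11a (-0.16 ± 0.05, adjusted p = 0.026, 10 of 10) and Arid1b (-0.17 ± 0.05, adjusted p = 0.043, 10 of 10), whose promoter windows are printed above. Setd5 changed by -0.10 with an adjusted p of 0.051. Leaving out WT lithium male 4 left no call, with Smarcc2 at an adjusted p of 0.0503. The Bcl11a call was also lost without WT vehicle female 1 or 4, and the Arid1b call in 12 of 20 fits that each left out a library. The Arid1b call was also lost with depth (-0.15), slopes (-0.11) or marker scores (-0.15) as covariates. The Bcl11a call was lost with the depth covariate (-0.16) and when only the groups compared were fitted (-0.16). The interaction of genotype and lithium called none of the 35 genes and 0% of all genes; 2 members had an unadjusted p under 0.05, and edgeR and DESeq2 called none. Its 3 smallest p-values belonged to Tlk2 (-0.15 ± 0.06, adjusted p = 0.88), Chd2 (0.13 ± 0.06) and Ehmt1, a methyltransferase for lysine 9 of histone H3 (0.09 ± 0.05).

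The 2 drugs were also set directly against each other, a contrast that takes no mean from the vehicle libraries, although they share in the estimate of spread. In HT, 18 of the 35 members were higher with fluoxetine than with lithium and none lower, where 24.8% of all genes were called and 12.2% were called higher. The median member difference was 0.11 and 29 of 35 lay above 0. In WT, 10 members were higher and none lower, where 9.76% of all genes were called and 4.35% were called higher; the median was 0.10 and 33 of 35 lay above 0. Depth overlapped more here, since both drugs had deeper libraries than vehicle in females: with depth as a covariate 20 members were called in HT and 11 in WT. With length and GC slopes in the fit the HT count was 12 higher and 1 lower (Kdm6b), and the median difference fell to 0.02. In WT the count was 6 with slopes, 6 when only the groups compared were fitted and 20 without WT fluoxetine male 2.

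Smarcc2 separated the drugs most clearly. In HT every fluoxetine library (8278, 9126 and 9874 for lowest, median and highest) was above every lithium library (7428, 7762 and 8161). The difference was 0.22 ± 0.03 (limma adjusted p = 5.1e-07; 10 of 10). In WT the values were 8005, 9075 and 9579 against 7206, 8105 and 8585, which overlap, with a difference of 0.16 ± 0.03 (adjusted p = 0.00083; 9 of 10). Bcl11a, which associates with the same BAF complex, was 0.24 ± 0.05 higher in HT (adjusted p = 7.2e-05; 10 of 10) and 0.23 ± 0.05 higher in WT (adjusted p = 0.0009; 10 of 10). It held 2983, 3178 and 3411 with fluoxetine against 2332, 2699 and 3070 with lithium in HT, and 2938, 3136 and 3558 against 2183, 2784 and 2966 in WT. Only the edges of those ranges overlapped. Arid1b was 0.23 ± 0.05 higher in WT (adjusted p = 0.0033; 9 of 10) and 0.18 higher in HT.

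Setd5 held 4168, 4408 and 4527 with fluoxetine against 3523, 3838 and 4201 with lithium in HT, where the ranges met only between 4168 and 4201. The difference was 0.18 ± 0.03 (adjusted p = 5.1e-05; 10 of 10), and 0.13 ± 0.03 in WT (adjusted p = 0.0093; 9 of 10). Foxp1 had the largest difference of the set in HT, 0.40 ± 0.07 (adjusted p = 7e-05; 10 of 10), from a median of 2084 with lithium to 2789 with fluoxetine, with ranges that overlapped between 2247 and 2486. In WT Foxp1 was higher by 0.24. Ankrd11 (8:122883822-123042277, minus strand) was higher by 0.15 ± 0.03 in HT (adjusted p = 0.00052; 9 of 10), with medians of 8249 and 7421, and by 0.12 in WT. Auts2 was higher by 0.26 ± 0.06 in HT (adjusted p = 0.00074; 10 of 10) and by 0.24 ± 0.06 in WT (adjusted p = 0.0055; 9 of 10). Tcf20 was higher by 0.19 ± 0.04 in WT (adjusted p = 0.0017; 9 of 10) and by 0.16 in HT.

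The other calls in HT were Setbp1 (0.28), Ash1l (0.26), Wac (0.20), Tlk2 and Nipbl (0.18 each), Tcf4 and Baz2b (0.15 each), Nsd1 (0.11), Ctcf (0.10) and Chd8 (0.09). Ash1l, a methyltransferase for lysine 36 of histone H3, held 5115 to 5629 with fluoxetine and 3922 to 5094 with lithium, with no overlap. The other calls in WT were Setbp1 (0.21) and Nsd1 (0.12). By role, the HT calls covered 4 of 6 remodellers, 3 of 7 methyltransferase-family genes, 2 of 3 architecture and Mediator genes, 5 of 7 transcription factors and co-regulators and 4 of 5 Polycomb-associated and other regulators. The 5 demethylase and PHD-finger genes (Kdm6b, Kdm5b, Phf2, Phf12 and Phf21a) and the DNA methylation genes Dnmt3a and Mbd5 were not called in any comparison averaged over sexes. Roles with so few genes are listed as a description and are not compared with each other. In females alone, fluoxetine and lithium differed for 5 members in HT (Smarcc2, Bcl11a, Ankrd11, Auts2 and Tlk2) and 6 in WT. In males alone they differed for 9 in HT and 1 in WT (Bcl11a). No share over all genes is given for these splits by sex, so the counts are not compared between sexes or genotypes.

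In all, 20 of the 35 members were called in at least 1 comparison averaged over sexes and 15 in none. Several of the 15 missed the threshold narrowly, and their values are given as such, since they were chosen after being seen. Kmt2a, which methylates lysine 4 of histone H3, had medians of 4730 and 4593 with lithium in HT and WT against 5290 and 4973 with vehicle, a change of -0.13 ± 0.05 (limma adjusted p = 0.057; 17 of 20); edgeR and DESeq2 both called it lower. Asxl3 had medians of 575 and 567 against 610 and 615 (-0.17 ± 0.06, adjusted p = 0.052; 17 of 20). Mbd5, a methyl-CpG-binding-domain protein, had medians of 2267 and 2226 with fluoxetine against 2098 and 2013 with vehicle (0.09 ± 0.03, adjusted p = 0.056; 17 of 20), and edgeR and DESeq2 called it higher. Kmt2c, a relative of Kmt2a that acts at enhancers, had medians of 3504 and 3582 against 3165 and 3105 (0.11 ± 0.05, adjusted p = 0.107; 19 of 20). In each of these cases the ranges of 10 libraries overlapped. Chd7 varied most between libraries among the remodellers, from 287 to 712 normalised counts, and its lithium change of -0.17 ± 0.08 had an adjusted p of 0.108 (13 of 20).

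The other genes, apart from Adnp and Kdm6b, had log2 fold changes near 0 against vehicle with either drug, averaged over genotypes and sexes, and none was called on that average. Dnmt3a, which writes DNA methylation in young neurons, had values of 0.01 with fluoxetine and -0.02 with lithium. Kmt5b, which methylates lysine 20 of histone H4, had 0.01 and -0.02, and Ehmt1 had -0.02 and -0.01. Phf21a, a reader of unmethylated lysine 4 of histone H3, had 0.00 and 0.01. The histone readers and erasers Phf2 (-0.04 and -0.05), Phf12 (0.04 and -0.04) and Kdm5b (0.02 and -0.05), and the HP1-binding zinc-finger gene Pogz (-0.03 and -0.05), were also near 0 on that average. The sexes differed more for some. Interactions of sex with fluoxetine and lithium were -0.17 and -0.16 for Kdm5b and -0.20 and -0.17 for Dnmt3a, none called. For the other genes of this paragraph they lay between -0.08 and -0.01. Kdm5b was called lower with lithium in WT males, as described further on.

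**Figure D4:**
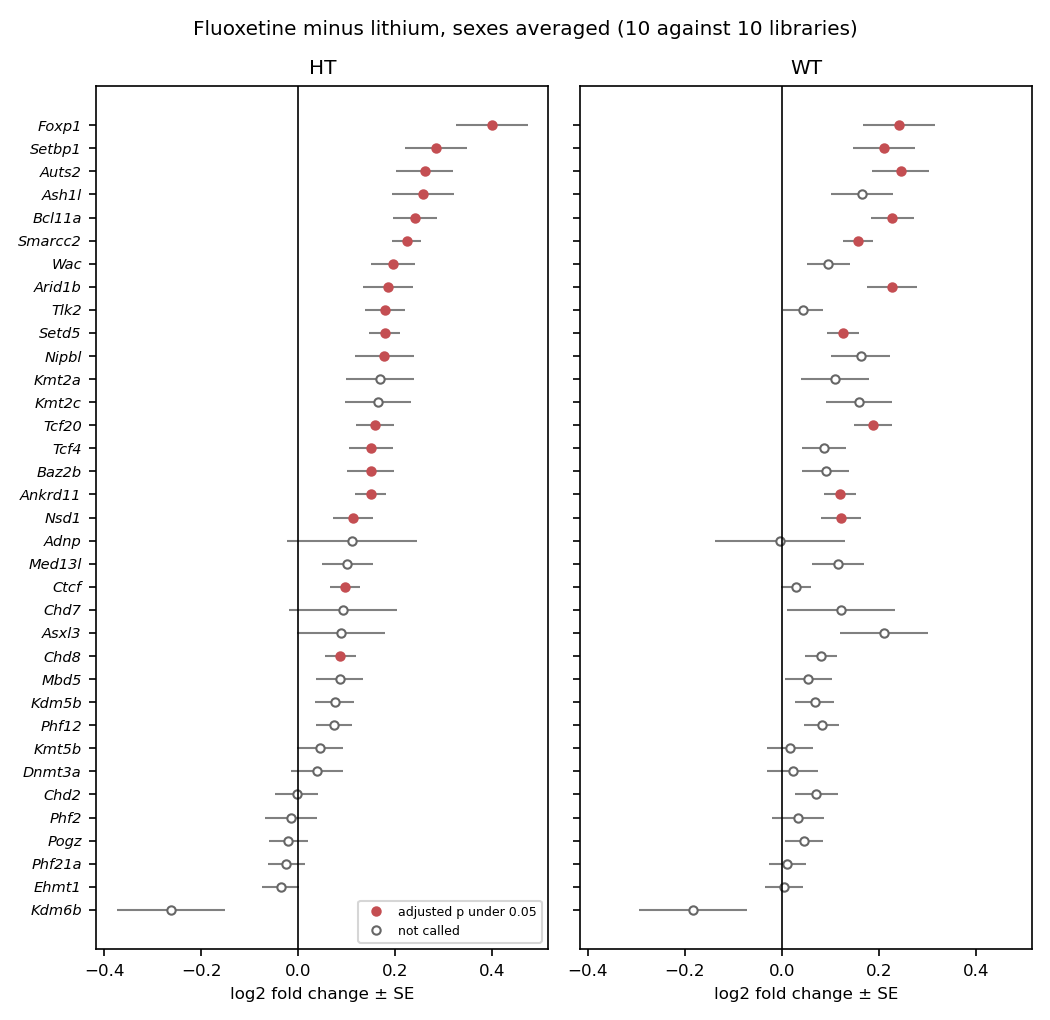
Fluoxetine minus lithium, log2 fold change with bars of ± 1 SE, for each of the 35 members in HT and in WT. Foxp1 is farthest to the right in HT (0.40), Smarcc2 has short bars at 0.22 and 0.16, and Kdm6b lies farthest below 0.

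Genotype moved no member past the threshold. Over all treatments none of the 35 was called by limma, where 5.06% of all genes were; 4 had an unadjusted p under 0.05, all higher in the libraries labelled HT, and 26 of 35 lay above 0. edgeR called none and DESeq2 called Chd2 and Setd5. Chd2 was higher by 0.08 ± 0.03 (adjusted p = 0.056; 21 of 30 libraries above the WT mean), Setd5 by 0.06 ± 0.02 (adjusted p = 0.064; 22 of 30) and Med13l by 0.08 ± 0.03 (adjusted p = 0.11; 24 of 30). With length and GC slopes in the fit 3 members were called lower, Kmt2c, Nsd1 and Tcf4, whose changes without the slopes were 0.03, -0.01 and -0.01. The length slope was higher in HT than in WT libraries in vehicle males (0.0152 against -0.0120), fluoxetine males (0.0211 against -0.0267) and lithium females (-0.000175 against -0.0268), each with p = 0.0079 in a two-sided exact permutation test, or 0.037 after adjustment; all members are long genes, and the part of this in their values was not tested beyond that fit. In vehicle alone none was called (0.152% of all genes) and none had an unadjusted p under 0.05; the smallest p-values belonged to Setd5 (0.06, adjusted p = 0.58), Tcf4 (-0.08, adjusted p = 0.67) and Bcl11a (-0.08, adjusted p = 0.67). In fluoxetine none was called (0.135% of all genes), with 4 at an unadjusted p under 0.05, and in lithium none (0.573% of all genes), with 3. DESeq2 and edgeR called none in these 3 comparisons. In vehicle males the striatal score was 1.09 in HT and -0.08 in WT, as given above. The endothelial and mural score there was -0.10 in HT and 0.12 in WT (two-sided exact permutation test, p = 0.0079, or 0.037 after adjustment). The part of the endothelial score in the genotype values was not tested.

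No member was called for males against females over all arms (1.19% of all genes were), with 30 of 35 below 0 and 7 at an unadjusted p under 0.05, all lower in males. edgeR called none and DESeq2 called Tcf4 and Setbp1 lower. Tcf4 changed by -0.08 ± 0.03 (limma adjusted p = 0.083; 27 of 30), Setbp1 by -0.11 ± 0.04 (adjusted p = 0.090; 24 of 30) and Ctcf, the insulator protein, by -0.05 ± 0.02 (adjusted p = 0.105; 22 of 30). The response to fluoxetine was lower in males than in females for 35 of 35 members, with a median interaction of -0.11. The members share the same libraries, WT fluoxetine male 2 among them, and no share over all genes is given. That count is therefore a description of the set alone. No member's interaction was called, 0.0112% of all genes were, and 8 members had an unadjusted p under 0.05; edgeR and DESeq2 called none. The smallest p-values were those of Kdm5b, a demethylase for lysine 4 of histone H3 (-0.17 ± 0.06, adjusted p = 0.24), Nsd1 (-0.17 ± 0.06) and Nipbl (-0.25 ± 0.09, adjusted p = 0.25). Without WT fluoxetine male 2 the interaction was -0.13 for Nsd1 and -0.19 for Nipbl. That of Kdm5b stayed between -0.19 and -0.15 whichever library was left out. In a fit that includes both slopes, 16 of 35 members lay below 0 and the median was 0.01. The interaction of sex and lithium had 30 of 35 members below 0 and no call (0.0112% of all genes), with 4 at an unadjusted p under 0.05 and none called by edgeR or DESeq2. Its smallest p-values were those of Nsd1 (-0.19 ± 0.06, adjusted p = 0.39), Kdm5b (-0.16) and Nipbl (-0.19).

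Within a single genotype and sex, 5 libraries against 5, most calls came from 2 of the 8 comparisons. In HT females fluoxetine raised 8 members and lowered none (6.86% of all genes called, 2.94% of them higher as a share of all). Auts2 held 2418, 2470, 2617, 2618 and 2627 with fluoxetine against 2009, 1689, 2036, 2281 and 1895 with vehicle, with no overlap, a change of 0.37 ± 0.08 (limma adjusted p = 0.0049). Wac held 3801, 3581, 3695, 3873 and 3503 against 3115, 3103, 3114, 3053 and 2830, again with no overlap, a change of 0.28 ± 0.06 (adjusted p = 0.0053). Nipbl held 2055, 2020, 1963, 2057 and 2117 against 1604, 1576, 1719, 1854 and 1503, with no overlap and a change of 0.31 ± 0.09 (adjusted p = 0.020). The other 5 were Setbp1 (0.29), Chd2 (0.21), Ankrd11 (0.15), Ctcf (0.14) and Smarcc2 (0.13). Leaving out HT vehicle female 5 left 2 calls, and slopes as covariates left 1, Auts2. In these libraries the length slope averaged 0.0356 with fluoxetine and -0.00554 with vehicle (two-sided exact permutation test, p = 0.0159, or 0.0556 after adjustment).

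Fluoxetine gave no call in HT males (0.595% of all genes; 2 members at an unadjusted p under 0.05), WT females (0% of all genes; 8 members) or WT males (0.0786% of all genes; 2 members), and edgeR and DESeq2 called none in these 3 comparisons. In WT females the length slope averaged 0.0383 with fluoxetine against -0.00522 with vehicle (two-sided exact permutation test, p = 0.0238, or 0.0667 after adjustment). The striatal score in HT males was -0.08 with fluoxetine and 1.09 with vehicle, as given above. The endothelial and mural score in WT males was -0.01 with fluoxetine and 0.12 with vehicle.

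In HT males lithium lowered 7 members and raised none, where 13.2% of all genes were called and 6.58% were called lower. Foxp1 held 1667, 1918, 2069, 2175 and 2030 with lithium against 2485, 2995, 2890, 2892 and 2753 with vehicle, with no overlap, and changed by -0.51 ± 0.11 (limma adjusted p = 0.00092). Setd5 held 3833, 3890, 3523, 3757 and 3844 against 4639, 4503, 4219, 4324 and 4361, with no overlap, and changed by -0.23 ± 0.05 (adjusted p = 0.00075). Smarcc2 held 8110, 7749, 7774, 7534 and 7548 against 8162, 8306, 8920, 8777 and 9119, with no overlap, and changed by -0.16 (adjusted p = 0.010). The others were Ash1l (-0.27), Tcf20 and Arid1b (-0.21 each) and Nsd1 (-0.19). The striatal score differed in this comparison, as it did between HT vehicle males and the other groups named above. With marker scores in the fit 3 calls remained, Setd5, Nsd1 and Foxp1. Foxp1 in HT vehicle males (2803 ± 197, n = 5) was above its mean in HT vehicle females (2238 ± 195) and WT vehicle males (2440 ± 219). Leaving out HT lithium male 2 left 4 calls.

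Lithium gave no call in HT females (1.23% of all genes; 3 members at an unadjusted p under 0.05; none by edgeR and 1, Chd2, by DESeq2), where Foxp1 was 2211 ± 183 against 2238 ± 195 with vehicle. It lowered 1 member in WT females (0.814% of all genes called, 0.506% lower), Ankrd11, which held 6765, 6804, 6853, 6806 and 7256 against 8759, 7639, 7228, 7531 and 7820 with vehicle. The values met only at 7228 and 7256, and the change was -0.17 ± 0.05 (limma adjusted p = 0.0495); the call was lost under several alternatives, a replicate block among them (0 calls). In WT males lithium lowered Kdm5b (1.75% of all genes called, 0.775% lower). Kdm5b held 1882, 1728, 1894, 1628 and 1729 against 2013, 2084, 1957, 2162 and 1990, with no overlap, and changed by -0.21 ± 0.06 (adjusted p = 0.044). The call was lost in edgeR and with striatal and olfactory bulb scores in the fit (0 calls each), and no call was left in 8 of 10 fits that each left out a library. The olfactory bulb and endothelial scores also differed in this comparison, and the endothelial score differed likewise between fluoxetine and vehicle in WT males.

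**Figure D5:**
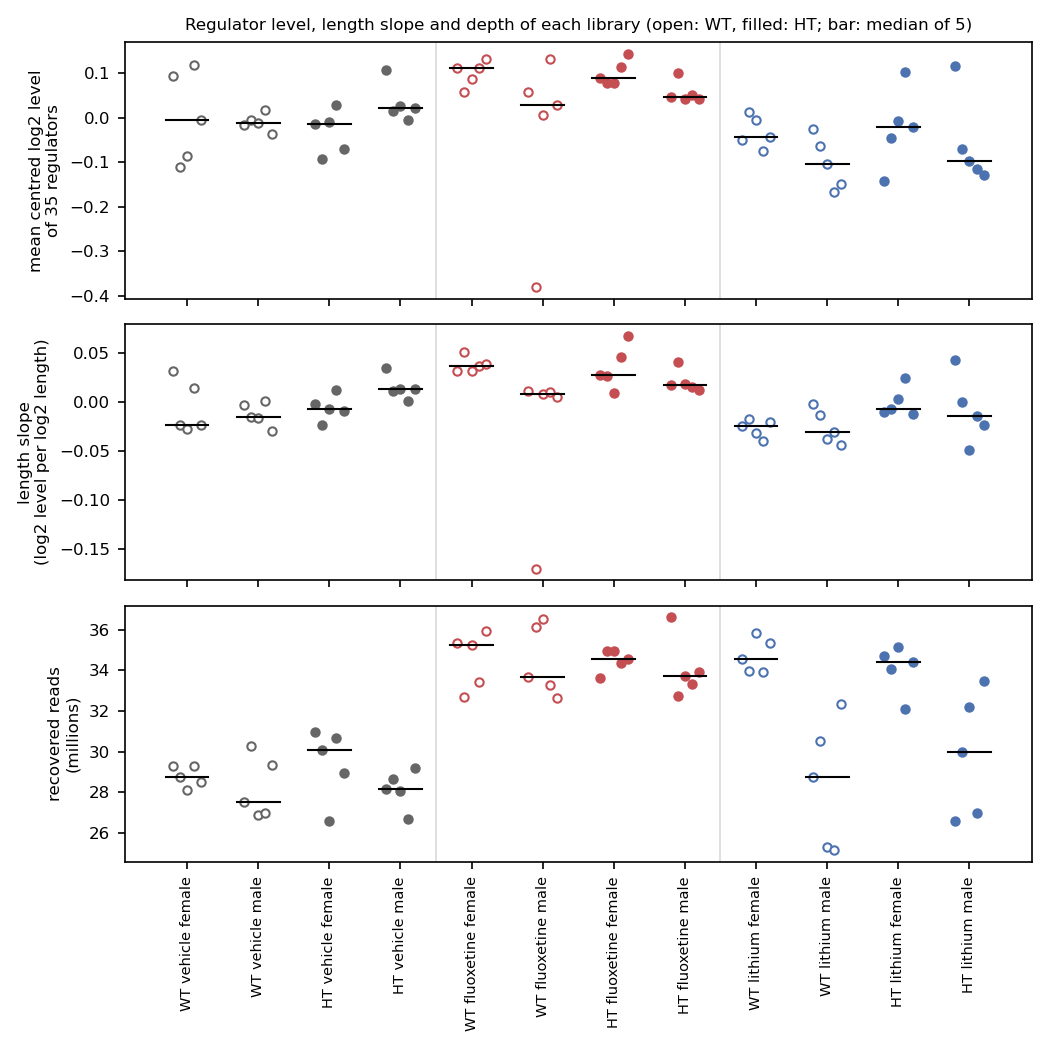
Mean centred log2 level of the 35 members, length slope and recovered reads (M, mega) for each library, by group. WT fluoxetine male 2 is far below the other libraries in member score (-0.38) and in length slope (-0.170), and vehicle libraries lie below fluoxetine libraries in depth.

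The mean centred log2 level of the 35 members was 0.10 ± 0.03 in HT fluoxetine females and 0.10 ± 0.03 in WT fluoxetine females (SD, n = 5), and -0.06 ± 0.10 in HT lithium males and -0.10 ± 0.06 in WT lithium males. In WT fluoxetine males it ran from -0.38 to 0.13. Since all members are long genes, the score and the length slope of a library describe overlapping features.

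Related genes outside the set, 163 on 8 lists of chromatin and transcription genes, were counted in the same comparisons. With fluoxetine over both genotypes 24 rose and 8 fell (14.5% of all genes were called in either direction and 6.71% higher). With lithium 15 rose and 30 fell (11.4% of all genes were called higher and 11.2% lower). In the direct comparison 49 were higher with fluoxetine and 15 lower in HT (24.8% of all genes called, 12.2% higher). In WT the counts were 21 and 5 (9.76% of all genes called, 4.35% higher). The 27 other autism-linked transcription factors had 12 higher and none lower with fluoxetine, 1 higher and 11 lower with lithium, and 19 higher and none lower for fluoxetine against lithium in HT. Other BAF subunits (26 genes) had 2 higher and 7 lower with lithium, and the Mediator list (30 genes) 6 higher and 1 lower. Of the called genes, Zmynd8, a reader of acetylated histones, had the smallest p with fluoxetine (0.19 ± 0.02, limma adjusted p = 6.1e-08, 18 of 20), ahead of the remodeller Chd9 (0.16 ± 0.02, adjusted p = 4.3e-07, 19 of 20). With lithium it was Chd3, a NuRD remodeller (-0.18 ± 0.02, adjusted p = 2.3e-08, 20 of 20), then Cdk19, a Mediator kinase (-0.20 ± 0.03, adjusted p = 2.2e-07, 19 of 20), and Suv39h1, a methyltransferase for lysine 9 of histone H3 (-0.17 ± 0.02, adjusted p = 1.2e-06, 20 of 20). Chd3 was also lower in the libraries labelled HT over all treatments (-0.10 ± 0.02, adjusted p = 0.00024, 28 of 30), while 5 of the 163 genes were higher. In that comparison 5.06% of all genes were called in either direction. For males against females the list had 3 calls, where 1.19% of all genes were called. The X-linked demethylases Kdm6a (-0.45 ± 0.03, adjusted p = 1.0e-16, 30 of 30) and Kdm5c (-0.32 ± 0.02) were lower in males, and Kdm4b (0.11) was higher.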

How the data were processed

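The deposited table holds, per the file headers, 1 signal value a gene and library. The values are counts that the authors divided by a size factor per library (0.85 to 1.25), and 100% were whole reads within 0.01 once multiplied back. The submitters' processing notes name GRCm38, DESeq2 1.19.11, Salmon 0.11.2 and R 3.6.0; annotation, strand setting and filter are not given in the sources used here. Without a known strand setting, overlapping genes cannot be separated. Because the table was normalised, the design's limma branch was used in place of edgeR on counts: limma-trend 3.58.1 (R 4.3.3) on log2(normalised count + 1), 12 group means over 60 libraries (48 residual degrees of freedom), genes with at least 10 in at least 5 libraries (17804 tested, 284 removed), Benjamini-Hochberg over all genes in each contrast, called at 0.05. The median SE for 5 against 5 libraries was 0.105. The fit was tested on simulated data. Members and lists were chosen with earlier results of these data known. Full statistics are given for called members, at most the 6 smallest p-values per comparison averaged over sexes, or the 3 smallest where fewer than 3 were called; of related genes, at most 3 per comparison. Alternatives used edgeR 4.0.16 and DESeq2 1.42.0 on recovered reads. Slopes were fitted over 12473 genes averaging 100 or more normalised counts. Replicates correlated at 0.971 to 0.996 and no libraries were identical.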

Additional observations from a re-analysis of the deposited data

Results flagged for a closer look

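Among 15 named members, each in 6 sets of 10 libraries of 1 genotype and treatment, a single library lay far from the others in 15 of 90 sets. The rule took the gap between an end value and the next as a share of the range. Its cutoff flags about 1 in 20 independent sets by chance. These sets share libraries and pool both sexes, so 15 of 90 is not a test against that rate. Of the 15 flags, 8 were the low value of WT fluoxetine male 2: Chd2 at 1540 normalised counts, Setd5 at 3263, Nipbl at 1191, Med13l at 2136, Tcf4 at 6540, Tcf20 at 2807, Ankrd11 at 6653 and Setbp1 at 910. HT vehicle male 1 held the high value of its set for Nipbl (2163), Tcf4 (10759) and Wac (3804). WT vehicle female 1 was the highest of its set for Med13l (3392) and Ankrd11 (8759). The low values of Med13l in HT lithium male 3 (2841) and of Wac in WT lithium male 5 (2737) stood alone. Without WT fluoxetine male 2 and HT vehicle male 1 together, fluoxetine against vehicle called 19 members over both genotypes, 12 in HT and 8 in WT.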

How the results depend on the processing

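Of the 69 changes given with full statistics, each a member in a comparison averaged over sexes, none changed sign in the alternatives run for it; other changes were not followed in this way, and that of Kmt2c with genotype over all treatments was 0.03 and was called lower with length and GC slopes. TMM scaling, a filter at 50, a pseudocount of 0.5 and edgeR (apart from 0 calls for lithium in WT males) moved no count of called members by over 1.5 times. The replicate numbers do not pair the libraries (7 of 60 correlated best with their own number; mean correlation -0.00156), and the replicate block changed no count except that for lithium in WT females, to 0. Quantile normalisation, no filter, a pseudocount of 5, the depth covariate, the slope covariates and the fit of only the groups compared also gave 0 there. The counts in this section are given without the share over all genes under the same setting, so they describe the members alone. Quantile normalisation left 6 calls for fluoxetine over both genotypes. With depth as a covariate there was 1 call for genotype over all treatments, 0 for fluoxetine over both genotypes, 4 for fluoxetine in HT, 1 for lithium in WT and 4 for lithium in HT males. With length and GC slopes there were 3 calls for genotype over all treatments, 1 in vehicle, 3 for fluoxetine in HT, 6 for fluoxetine against lithium in WT, 1 each for fluoxetine in HT females, HT males and WT males, 2 for lithium in HT females and 3 in WT males. The replicate block with both slopes gave 3 and 1 for genotype over all treatments and in vehicle, 4 and 3 for fluoxetine over both genotypes and in HT, 9 and 6 for fluoxetine against lithium in HT and WT, 1 each for fluoxetine in HT females, HT males and WT males, 2 each for lithium in HT females and WT males and 0 in WT females. Striatal and olfactory bulb scores gave 4 for genotype over all treatments, 2 for lithium in HT, 1 in HT females, 3 in HT males and 0 in WT males. Only the groups compared gave 6 for fluoxetine against lithium in WT, 4 for lithium in HT males and 5 in WT males.

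DESeq2 called 2 for genotype over all treatments, 17 for fluoxetine over both genotypes (16 higher, 1 lower), 1 in WT, 13 in HT females, 2 for sex, 1 for lithium in HT females and 2 in WT females. Fluoxetine against lithium gave 5 calls in HT and 6 in WT in females alone, and 9 and 1 in males alone; this split was chosen after seeing the data. Without WT fluoxetine male 2 and HT vehicle male 1 there were 19 calls for fluoxetine over both genotypes, 12 in HT, 8 in WT, 2 in HT males and 1 in WT males, 21 for fluoxetine against lithium in WT and 2 for sex.

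Leaving out each library in turn gave 0 to 2 calls for genotype over all treatments and 0 within each treatment. For fluoxetine it gave 7 (without HT fluoxetine female 4, among others) to 20 (without WT fluoxetine male 2) over both genotypes, 6 to 9 in HT, 0 to 7 in WT, 2 to 8 in HT females, 0 in HT males and WT females and 0 to 1 in WT males. For lithium it gave 8 to 13 over both genotypes, 4 to 7 in HT, 0 to 4 in WT, 0 to 1 in HT females, 4 to 7 in HT males and 0 to 2 in WT females and in WT males. Fluoxetine against lithium gave 15 to 21 in HT and 7 to 20 in WT, the interactions gave 0, and sex 0 to 4 (4 without HT vehicle male 1).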
